A study of Homo sapiens with 36 samples.

Results

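The 10 genes described here code for adhesion molecules of the cell surface and for proteins known best from neurons: SDK1, SDK2, CDH4, GPC6, NKAIN4, CACNG4, SLC4A8, SYT11, MAP2 and ZNF365. They are 10 of the 60662 gene IDs in a table of RNA sequencing counts from A549, a human lung adenocarcinoma cell line. They were picked because their mRNA was lower after an siRNA against ATF6 than after a non-targeting siRNA, at 6 or 16 h, so the size of that difference is given as a description and supports nothing. Each gene matched 1 row of the table, and all 10 passed the filter on low counts, which kept 18013 genes in the 16 h libraries and 19030 in the 35 libraries of both times.

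A549 cells received siATF6, siATF4 or siControl, the non-targeting siRNA, at 100 nM with a DharmaFECT lipid reagent. Transfected cultures were split over wells and then kept without glucose (0 mM) or with 25 mM glucose for 16 or 6 h, in both cases with 10% dialysed serum and 2 mM glutamine. That gives 12 groups of 3 biological replicates, 36 libraries in all, prepared from poly(A) RNA without strand information. The labels do not say which samples came from the same transfected culture. All groups share 1 cell line, transfection and the change of medium, so p-values measure the spread between cultures of this line. Each target was silenced with 1 siRNA reagent, and the sources used here do not hold its sequence. An effect of ATF6 loss and an effect of the siATF6 reagent on other transcripts therefore cannot be told apart.

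ATF6 is a transcription factor held in the membrane of the endoplasmic reticulum (ER) and released by cleavage when unfolded proteins build up, after which it drives chaperone genes. ATF4 is the transcription factor of the integrated stress response and drives amino acid synthesis and transport genes. Cadherins, sidekicks and glypicans sit at the cell surface, where they bind neighbouring cells or growth factors, and in the nervous system they help to match synaptic partners. Carcinoma lines often express some genes of this kind at low levels.

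A library with a low total was left out: replicate 3 of siATF4 without glucose at 6 h, with 2867609 counts, against 39389285 to 78738853 in the other 35. In siControl and siATF6, the 6 h libraries of replicate 2 ran against their glucose labels. Across 1939 genes, their log2 ratio of 0 over 25 mM correlated with the 16 h change at -0.70 in siControl and -0.64 in siATF6, against 0.57 to 0.69 in the other 6 pairs of libraries. Effects of the knockdowns at 6 h are therefore given as the mean over both glucose concentrations, and also without replicate 2. ATF6 mRNA checked the labels: it stood at 15.4 ± 4.99 CPM (TMM-normalized counts relative to library size) in siATF6 against 91.0 ± 0.816 CPM in siControl in 0 mM glucose at 16 h (SD, n = 3 each), with log2 fold changes of -2.58 in 0 mM, -2.36 in 25 mM and -2.23 at 6 h. ATF4 mRNA under siATF4 was lower by log2 fold changes of -1.29 in 0 mM at 16 h (adjusted p = 0.000186 in edgeR) and -1.13 at 6 h (adjusted p = 0.00144), but its difference of -0.28 in 25 mM at 16 h did not pass (adjusted p = 0.759).

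The name "neuronal" was checked against markers. Epithelial keratins were abundant, with KRT8 at 2890 CPM in siATF6 and 3942 CPM in siControl and KRT7 at 3281 CPM in siATF6 and 3194 CPM in siControl, all in 25 mM glucose at 16 h. Of 8 epithelial markers, 0 passed in edgeR in siATF6 against siControl, with 2, 0 and 1 at an unadjusted p under 0.05 in 0 mM, in 25 mM and at 6 h. Of 15 neuron markers, 6 exceeded 1 CPM in siControl in 25 mM glucose, led by the tubulin TUBB3, while STMN2 had 0 counts in all 35 libraries and GAP43, ELAVL3 and ELAVL4 stayed below 0.4 CPM in every one. In siControl in 25 mM glucose at 16 h, the neuron markers RBFOX3, NEFL, SNAP25 and SYP averaged 9.58, 9.13, 7.51 and 4.17 CPM. The epithelial markers CLDN4, EPCAM and MUC1 averaged 7.06, 5.66 and 4.53 CPM there, while CDH1 and the keratins were higher. All 8 epithelial markers exceeded 1 CPM in that group. The cells thus carried epithelial markers and some neuron markers, and a neuronal state was not tested. The members are named for what they are known for elsewhere and not for a neuronal state of these cells. Summed neuron markers ran from 153 to 228 CPM in siATF6 against 244 to 332 CPM in siControl in 0 mM glucose at 16 h, and from 271 to 399 CPM in siATF6 against 348 to 481 CPM in siControl in 25 mM. The sums did not overlap in 0 mM and overlapped in 25 mM. They consist mostly of TUBB3, which averaged 286 CPM in siATF6 and 362 CPM in siControl in 25 mM and was not called. The median log2 fold change of the neuron markers tested was -0.27 in 0 mM, -0.15 in 25 mM and -0.03 at 6 h. RBFOX3, a splicing factor of neurons, was lower, at a log2 fold change of -1.84 in 0 mM (adjusted p = 0.0357) and -1.44 at 6 h (adjusted p = 0.0171), while -2.05 in 25 mM did not pass (adjusted p = 0.0658). NEFL, a neurofilament subunit, was higher by 0.52 in 25 mM (adjusted p = 0.0325), and no other of the 11 or 12 neuron markers tested passed in edgeR. Summed fibroblast, endothelial and blood markers ran from 3.78 to 7.58 CPM in siATF6 against 9.53 to 12.8 CPM in siControl in 0 mM, and from 12.0 to 17.5 CPM in siATF6 against 27.8 to 28.5 CPM in siControl in 25 mM, without overlap. CD3E and MS4A1 had no count, and COL1A2, PTPRC and DCN did not exceed 0.14 CPM in any library. Of the 5 genes of this list that were tested, 2 fell in 0 mM, 1 in 25 mM and 1 at 6 h. COL1A1, a fibrillar collagen, was at -1.20 (adjusted p = 0.00613 in edgeR), -1.29 (adjusted p = 0.0105) and -1.13 (adjusted p = 0.0197) in these settings, and CD14, a monocyte receptor, at -1.58 in 0 mM (adjusted p = 0.00791). The part of these markers in the members' difference was not tested. In bulk RNA, fewer cells that express a gene and less RNA in each cell cannot be told apart.

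RefSeq promoters were matched for 7 of the 10 members (11 entries); NKAIN4, SDK2 and CACNG4 had none. For GPC6 and SYT11 the RefSeq start is the same base as the start in the deposited table, so the 250 bases before it are printed, from GRCh38.p14, plus strand. These are the sequences in which sites of the silenced factor would be looked for first. GPC6 lies at chr13:93226557-93226806 and SYT11 at chr1:155859317-155859566, and capitals mark a match to a searched motif.
GPC6: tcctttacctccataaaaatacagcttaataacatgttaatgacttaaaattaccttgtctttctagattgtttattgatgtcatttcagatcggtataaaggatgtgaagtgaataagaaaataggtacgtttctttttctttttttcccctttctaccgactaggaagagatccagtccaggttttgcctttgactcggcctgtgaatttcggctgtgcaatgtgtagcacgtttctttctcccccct
SYT11: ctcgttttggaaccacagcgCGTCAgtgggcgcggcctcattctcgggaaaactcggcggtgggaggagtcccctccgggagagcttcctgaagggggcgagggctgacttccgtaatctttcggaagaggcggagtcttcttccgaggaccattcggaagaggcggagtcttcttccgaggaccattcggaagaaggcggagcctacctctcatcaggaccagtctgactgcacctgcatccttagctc
Both strands of all 11 entries were searched for the ER stress element (CCAAT and CCACG with 9 bases of any kind between them), the second such element (ATTGG and CCACG with 1 base between them), the ATF6 site TGACGTGG, the cAMP response element TGACGTCA, and the shorter parts CCACG and TGACG, which overlap the longer ones. Among 35116 RefSeq promoter windows of 250 bases, these occur in 0.074%, 0.0513%, 0.612%, 1.65%, 33.5% and 21.2%. None of the 4 long motifs was found in any of the 11 windows of the members. The short TGACG was found once in SYT11 (on the minus strand, read as CGTCA) and once in each of the 2 CDH4 entries. CCACG was found in ZNF365 and 1 CDH4 entry, with 2 matches each, and once in 1 SLC4A8 entry, while GPC6 held no match of any kind. The entries of CDH4, SLC4A8, SDK1, MAP2 and ZNF365 start at other bases than the rows of the table, at a distance from 177 bases for ZNF365 to 828433 bases for SDK1. The GPC6 window was also poor in G and C, at 37.6%, against 60.0% in SYT11 and a median of 58.0% over all windows.

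Per transcript length, the members were low to moderate in siControl cells in 25 mM glucose at 16 h. In TPM (transcripts scaled to the same sum in each library, computed from the 1 effective length per gene in the table, whose library is not stated; mean ± SD, n = 3), CACNG4 stood at 12.2 ± 2.88, CDH4 at 9.29 ± 0.36 and NKAIN4 at 7.72 ± 2.32, and these 3 levels were within each other's spread. GPC6 at 3.51 ± 0.682, MAP2 at 2.9 ± 0.493 and SLC4A8 at 2.29 ± 0.378 followed, each within the spread of its neighbour in this order. SDK1 at 1.57 ± 0.14 and ZNF365 at 1.53 ± 0.0799 could not be told from each other, nor could SYT11 at 1.04 ± 0.184 and SDK2 at 0.906 ± 0.284.

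In siATF6 cells all 10 members were lower than in siControl cells in each setting. At 16 h the siATF6 libraries lay wholly below the siControl libraries for 10 of 10 members in 0 mM and 10 of 10 in 25 mM glucose, against 13.6% and 13.2% of all genes tested. The adjusted p was under 0.05 for 10 members in 0 mM, where 2.91% of all genes were called lower, and for 9 in 25 mM, where 0.561% were. With the replicate number as a block, it was under 0.05 for 10 members in 25 mM too. At 6 h, over both glucose concentrations, 10 members were called, where 4.09% of all genes were called lower, and 8 were called without replicate 2. The shares of all genes called with the block and without replicate 2 are not given here. Since the members were picked on these contrasts, nothing is read from the counts. Their median log2 fold change was -1.87 in 0 mM, -1.80 in 25 mM and -1.63 at 6 h, beside -0.01, 0.02 and -0.00 over all genes tested. In 25 mM, 4 members were called when siATF6 replicate 2 or siControl replicate 3 was left out.

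**Figure D1:**
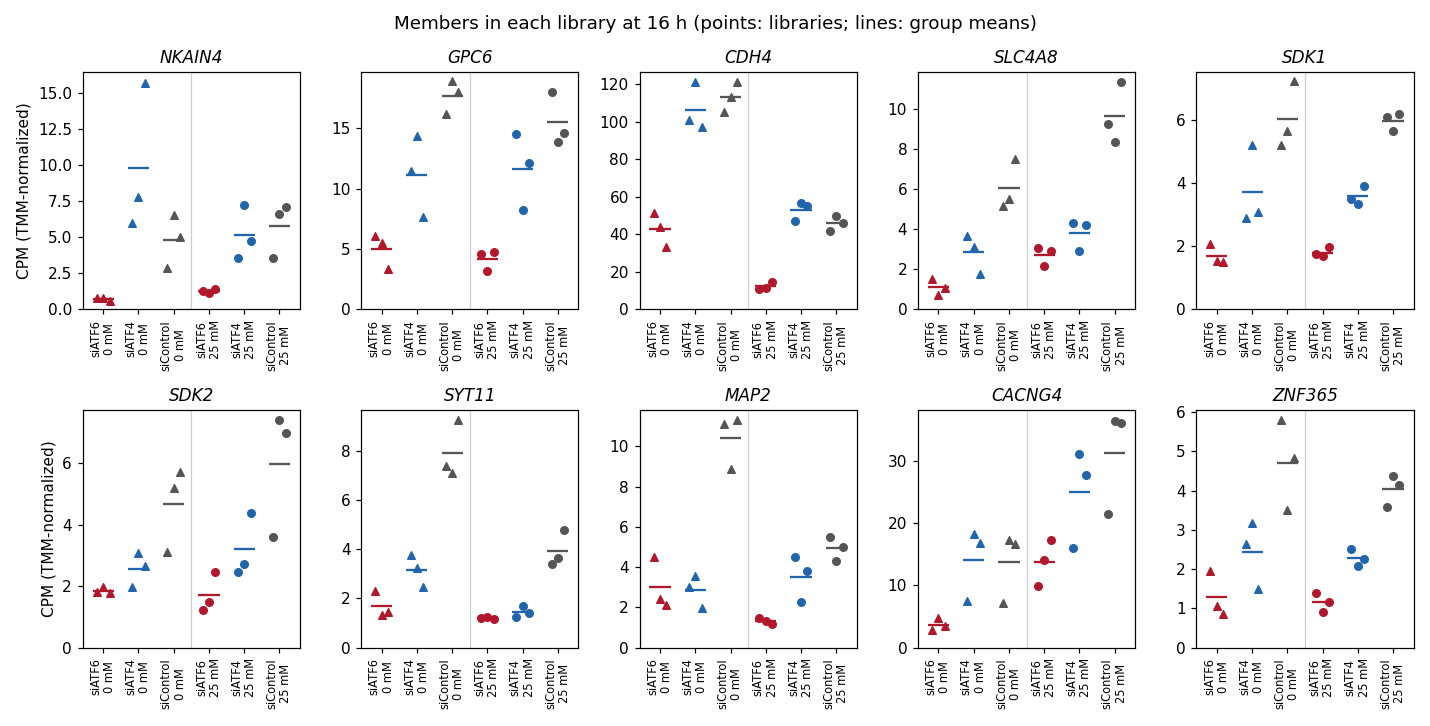
CPM (y axis, TMM-normalized counts, linear from 0) of each member in each 16 h library, by siRNA and glucose concentration; points are libraries, triangles for 0 mM and circles for 25 mM, and lines are group means. The red siATF6 points lie below the grey siControl points at the same glucose concentration for all 10 members.

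Positions of the members are those of the table, in GRCh38, and cover the whole gene. Among the immunoglobulin-type adhesion molecules, SDK1 (chr7:3301252-4269000, plus strand) and SDK2 (chr17:73334384-73644445, minus strand) code for sidekick proteins, which bind their own kind on the neighbouring cell and guide synaptic layering in the retina. SDK1 had 2.07, 1.53 and 1.51 CPM in siATF6 against 5.19, 5.63 and 7.23 CPM in siControl in 0 mM glucose at 16 h, and 1.74, 1.69 and 1.97 CPM in siATF6 against 6.1, 5.63 and 6.17 CPM in siControl in 25 mM. The log2 fold changes were -1.84 (SE 0.224) and -1.72 (SE 0.223). The libraries of each group lay close together, and neither pair of groups overlapped. At 6 h the lowest, median and highest values were 1.39, 1.65 and 2.73 CPM in siATF6 and 3.63, 6.4 and 7.48 CPM in siControl (-1.61, SE 0.202), and the 2 siControl libraries under 4 CPM were both of replicate 2. SDK2, its close relative, varied more between the siControl libraries. It had 1.81, 1.98 and 1.77 CPM in siATF6 against 3.12, 5.19 and 5.7 CPM in siControl in 0 mM, and 1.22, 1.49 and 2.46 CPM in siATF6 against 3.58, 7.41 and 6.96 CPM in siControl in 25 mM. Its log2 fold changes were -1.35 (SE 0.338) and -1.78 (SE 0.34), and siControl replicate 1 was the low library of its group in both media. At 6 h SDK2 was the member whose groups overlapped: the lowest, median and highest values were 1.32, 2.11 and 4.09 CPM in siATF6 and 2.83, 5.44 and 6.24 CPM in siControl, with a log2 fold change of -1.09 (SE 0.262). Without replicate 2 it was -0.87 and was not called.

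CDH4 (chr20:61252261-61940617, plus strand) codes for R-cadherin, a classical cadherin of retina, kidney and muscle that holds cells together in a calcium-dependent way. It had 51.1, 43.9 and 33.3 CPM in siATF6 against 105, 113 and 121 CPM in siControl in 0 mM at 16 h. In 25 mM it had 11.1, 11.6 and 14.5 CPM in siATF6 against 41.7, 49.7 and 46.2 CPM in siControl. Every siATF6 value in 25 mM was below every other 16 h value of the gene, and the siATF6 libraries in 0 mM reached the range of siControl in 25 mM. The log2 fold changes were -1.42 (SE 0.153) in 0 mM and -1.88 (SE 0.157) in 25 mM, and -1.56 (SE 0.168) at 6 h, where the lowest, median and highest values were 8.63, 16.8 and 26.3 CPM in siATF6 and 36.3, 47.7 and 64.2 CPM in siControl.

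GPC6 (chr13:93226807-94408020, plus strand) codes for glypican-6, a heparan sulphate proteoglycan anchored in the outer membrane, known as a signal by which astrocytes promote synapse formation. It had 6.1, 5.47 and 3.33 CPM in siATF6 against 16.2, 18.9 and 18 CPM in siControl in 0 mM at 16 h, and 4.58, 3.15 and 4.76 CPM in siATF6 against 18, 13.9 and 14.6 CPM in siControl in 25 mM. Both differences were wider than the spread in either group, at log2 fold changes of -1.85 (SE 0.272) and -1.89 (SE 0.273). At 6 h the lowest, median and highest values were 5.29, 6.23 and 9.02 CPM in siATF6 and 15.7, 18 and 20.0 CPM in siControl (-1.44, SE 0.171). Of its exon bases, 7.36% are shared with a gene on the opposite strand.

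NKAIN4 (chr20:63240784-63272694, minus strand) codes for a small membrane protein that binds a subunit of the sodium pump and is expressed in brain. It had 0.766, 0.763 and 0.597 CPM in siATF6 against 2.9, 6.56 and 5.04 CPM in siControl in 0 mM at 16 h, and 1.3, 1.11 and 1.42 CPM in siATF6 against 3.56, 6.58 and 7.1 CPM in siControl in 25 mM. The siATF6 libraries were close together, while siControl replicate 1 was the lowest of its group in both media. Its log2 fold change of -2.78 (SE 0.417) in 0 mM was the lowest of the 10 members in that contrast, as was -2.16 (SE 0.396) in 25 mM. At 6 h its values ran from 0.889 to 2.78 CPM in siATF6, with a median of 1.36 CPM, and from 3.25 to 7.36 CPM in siControl, with a median of 6.51 CPM (-1.87, SE 0.3). The libraries carry no strand, and AL121827.2, a lncRNA on the opposite strand inside NKAIN4 whose gene ID and span GENCODE 29 lists under the name FLJ16779, shares 5.4% of the exon bases of NKAIN4 in GENCODE 29. Its own log2 fold changes were -2.92 in 0 mM, -2.98 in 25 mM and -2.18 at 6 h, and reads of the shared bases cannot be told apart.

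CACNG4 (chr17:66964707-67033398, plus strand) codes for an auxiliary subunit of calcium channels that also escorts AMPA-type glutamate receptors to the synapse. It had 2.81, 4.83 and 3.46 CPM in siATF6 against 7.1, 17.3 and 16.6 CPM in siControl in 0 mM at 16 h, and 9.91, 14.1 and 17.3 CPM in siATF6 against 21.4, 36.4 and 36 CPM in siControl in 25 mM. Replicate 1 was the low library of all 4 groups. The log2 fold changes were -1.90 (SE 0.403) and -1.18 (SE 0.385), and the second was the one that was not called without the replicate block (adjusted p = 0.228). At 6 h its values ran from 9.06 to 11.9 CPM in siATF6 and from 15.8 to 32.8 CPM in siControl. The log2 fold change was -1.13 (SE 0.234), and -1.01 without replicate 2, which was not called. Of the exon bases of CACNG4, 6.78% are shared with a gene on the opposite strand.

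SLC4A8 (chr12:51391317-51515763, plus strand) codes for a sodium-driven chloride/bicarbonate exchanger that raises intracellular pH and acts at presynaptic terminals. It had 1.53, 0.722 and 1.07 CPM in siATF6 against 5.17, 5.51 and 7.5 CPM in siControl in 0 mM at 16 h, and 3.07, 2.17 and 2.91 CPM in siATF6 against 9.24, 8.32 and 11.3 CPM in siControl in 25 mM. The siATF6 libraries stood lower in 0 mM than in 25 mM, as did the siControl libraries, and siATF6 and siControl did not overlap in either medium. The log2 fold changes were -2.47 (SE 0.308) and -1.81 (SE 0.292). At 6 h, the siControl libraries of replicate 2 held 14.8 CPM in 0 mM and 12.0 CPM in 25 mM, the highest values of the gene, against 6.79 to 7.91 CPM in the other 4. The siATF6 libraries of 6 h ran from 1.35 to 2.67 CPM, and the log2 fold change was -2.17 (SE 0.223). GALNT6, a glycosyltransferase gene on the opposite strand, shares 2.18% of the exon bases of SLC4A8. It had log2 fold changes of -1.37 in 0 mM, -1.01 in 25 mM and -1.29 at 6 h, and reads of the shared bases cannot be told apart.

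SYT11 (chr1:155859567-155885199, plus strand) codes for a synaptotagmin that lacks calcium binding and takes part in vesicle recycling and autophagy. It had 2.3, 1.32 and 1.45 CPM in siATF6 against 7.38, 7.08 and 9.25 CPM in siControl in 0 mM at 16 h, and 1.2, 1.24 and 1.16 CPM in siATF6 against 3.4, 3.64 and 4.8 CPM in siControl in 25 mM. No siATF6 library reached the lowest siControl library of either medium. The log2 fold changes were -2.25 (SE 0.235) and -1.71 (SE 0.235), and -2.06 (SE 0.253) at 6 h. There the siATF6 libraries ran from 0.796 to 1.67 CPM around a median of 1.35 CPM and the siControl libraries from 3.13 to 10.5 CPM around a median of 4.49 CPM, with the replicate 2 libraries highest in siControl.

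MAP2 (chr2:209424058-209734118, plus strand) codes for a microtubule-associated protein that marks dendrites. It had 4.52, 2.41 and 2.11 CPM in siATF6 against 11.1, 8.86 and 11.3 CPM in siControl in 0 mM at 16 h, and 1.49, 1.33 and 1.16 CPM in siATF6 against 5.5, 4.3 and 5.02 CPM in siControl in 25 mM. siATF6 replicate 1 was the high library in 0 mM and still lay below each siControl library in that medium. Its log2 fold changes were -1.81 (SE 0.303) and -1.89 (SE 0.311). At 6 h its values ran from 1.62 to 2.9 CPM in siATF6 and from 6.57 to 8.69 CPM in siControl (-1.72, SE 0.188).

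ZNF365 (chr10:62374192-62670301, plus strand) codes for a zinc finger protein with roles in centrosome function and neurite branching in rodents. It had 1.96, 1.07 and 0.853 CPM in siATF6 against 5.8, 3.51 and 4.82 CPM in siControl in 0 mM at 16 h, and 1.39, 0.909 and 1.17 CPM in siATF6 against 3.58, 4.37 and 4.13 CPM in siControl in 25 mM. The groups did not overlap, with log2 fold changes of -1.88 (SE 0.318) and -1.79 (SE 0.317). At 6 h its values ran from 1.24 to 2.43 CPM in siATF6 and from 3.74 to 8.55 CPM in siControl (-1.65, SE 0.223). Of its exon bases, 31.1% are shared with other annotated genes, so its counts depend on how the authors' counting divided those reads. The differences between the siATF6 effect in 0 mM and that in 25 mM ran from -0.72 (SE 0.547) for CACNG4 to 0.46 (SE 0.214) for CDH4 over the 10 members, and were not tested.

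**Figure D2:**
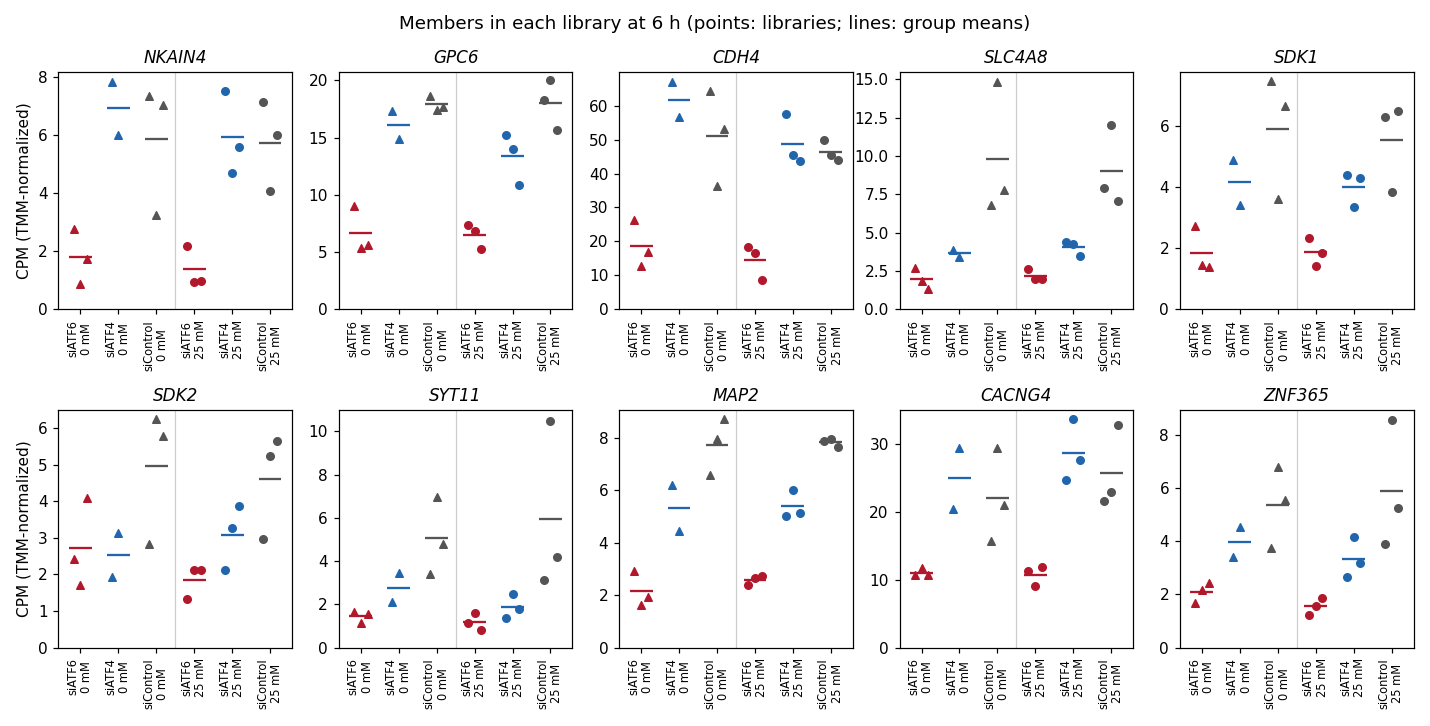
CPM (y axis, TMM-normalized counts, linear from 0) of each member in each 6 h library, arranged as for 16 h, without the library of 2867609 counts. The siATF6 libraries lie below all siControl libraries for 9 of the 10 members, where 2.44% of all genes tested do so; for SDK2 they overlap.

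With siATF4, a reagent against another factor, 7 of the 10 members (GPC6, SLC4A8, SDK1, SDK2, SYT11, MAP2 and ZNF365) had negative log2 fold changes in each of the 3 settings, while NKAIN4, CDH4 and CACNG4 did not. These comparisons share their siControl libraries with the contrast on which the members were picked, so values are set side by side and the likeness of the 2 knockdowns was not tested. In 0 mM glucose at 16 h, 4 members were lower, where 5.09% of all genes were called lower: MAP2 at -1.89 (SE 0.304, adjusted p = 0.00218), SYT11 at -1.34 (SE 0.227, adjusted p = 0.0029), SLC4A8 at -1.10 (SE 0.289, adjusted p = 0.0256) and SDK1 at -0.70 (SE 0.216, adjusted p = 0.0457). These are edgeR quasi-likelihood tests with Benjamini-Hochberg adjustment over all genes. All 4 calls were lost in a fit on the 6 libraries compared alone (adjusted p from 0.104 to 0.318). The median over the 10 members was -0.79, beside -0.02 over all genes tested.

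MAP2 had 3.01, 3.56 and 1.96 CPM in siATF4 against the siControl values of 11.1, 8.86 and 11.3 CPM in 0 mM; its log2 fold change of -1.89 stands beside -1.81 with siATF6. SYT11 had 3.75, 3.22 and 2.46 CPM in siATF4 against 7.38, 7.08 and 9.25 CPM in siControl. SLC4A8 had 3.67, 3.11 and 1.74 CPM in siATF4 against 5.17, 5.51 and 7.5 CPM in siControl. None of these 3 genes overlapped between the groups, and 6 members in all lay wholly below siControl in 0 mM, where 12.6% of all genes tested did. SDK1 had 2.9, 5.2 and 3.08 CPM in siATF4, of which replicate 2 reached the lowest siControl library. Its call was lost when any library of the 2 groups other than siATF4 replicate 2 was left out (adjusted p from 0.0583 to 0.17). The call of SLC4A8 was lost without siATF4 replicate 3 (adjusted p = 0.0925) or siControl replicate 3 (adjusted p = 0.114). In both cases 2 members were then called.

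NKAIN4 lay on the other side of 0 in 0 mM glucose. It had 5.97, 7.78 and 15.7 CPM in siATF4 against 2.9, 6.56 and 5.04 CPM in siControl, with a log2 fold change of 1.01 (SE 0.374) that did not pass (adjusted p = 0.0833). It was past the threshold in DESeq2 (adjusted p = 0.0404) and without siATF4 replicate 1 (1.27, adjusted p = 0.0322). The highest value, 15.7 CPM, is that of siATF4 replicate 3. That library had the fewest genes with a count of the 35, at 21303, against 22677 and 22458 in replicates 1 and 2. ZNF365 at -0.96 (adjusted p = 0.052), SDK2 at -0.87 (adjusted p = 0.0903) and GPC6 at -0.67 (adjusted p = 0.0959) did not pass in edgeR either. Without siATF4 replicate 2, ZNF365 (adjusted p = 0.0244) and GPC6 (adjusted p = 0.0364) did. ZNF365 also passed in DESeq2 (adjusted p = 0.0171), in edgeR with 35 libraries (adjusted p = 0.0386) and with upper-quartile factors (adjusted p = 0.0482). CDH4 at -0.10 (SE 0.15) and CACNG4 at 0.03 (SE 0.383) lay near 0.

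In 25 mM glucose at 16 h, SYT11 was the member called with siATF4, at -1.44 (SE 0.233, adjusted p = 0.0434), where 0.0222% of all genes were called lower. It had 1.26, 1.7 and 1.4 CPM in siATF4 against 3.4, 3.64 and 4.8 CPM in siControl. The groups did not overlap, but the call was lost when any 1 of the 6 libraries was left out (adjusted p from 0.113 to 0.357), with only these 6 libraries in the fit (adjusted p = 0.233) and with 35 libraries (adjusted p = 0.363). SLC4A8 was at -1.33 (SE 0.288, adjusted p = 0.191), with 4.28, 2.92 and 4.22 CPM in siATF4 against 9.24, 8.32 and 11.3 CPM in siControl. With the replicate number as a block, it passed too (adjusted p = 0.0469), which makes 2 members called. The share of all genes called with the block is not given here, so this count cannot be set beside the 0.0222%. Samples of the same replicate number deviated together in this comparison (correlations 0.28 to 0.56), but the labels do not say whether they share a culture. The other 8 members ran from -0.91 for SDK2 to 0.20 for CDH4. For 4 members, SLC4A8, SDK1, SYT11 and ZNF365, the siATF4 libraries lay wholly below siControl, where 7.57% of all genes tested did.

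At 6 h, over both media, SLC4A8 at -1.29 (SE 0.233, adjusted p = 0.00731) and SYT11 at -1.26 (SE 0.265, adjusted p = 0.033) were lower with siATF4, where 0.147% of all genes were called lower. SLC4A8 had 3.43, 3.86 and 4.38 CPM as its lowest, median and highest value in the 5 siATF4 libraries and 6.79, 7.86 and 14.8 CPM in the 6 siControl libraries, without overlap. MAP2 did not overlap either, which makes 2 members, where 0.93% of all genes tested lay wholly below siControl. SYT11 had 1.38, 2.13 and 3.43 CPM in siATF4 and 3.13, 4.49 and 10.5 CPM in siControl, and these overlapped. Without replicate 2 at 6 h neither passed (SLC4A8 at -0.92, adjusted p = 0.611; SYT11 at -1.08, adjusted p = 0.0928), a fit with 1 library left in siATF4 in 0 mM. Both calls were also lost without siATF4 in 0 mM, replicate 1 (SLC4A8 adjusted p = 0.0604, SYT11 adjusted p = 0.179) or replicate 2 (0.139 and 0.114 as adjusted p), and with only the libraries of the groups compared in the fit (0.115 and 0.301 as adjusted p). That of SYT11 was lost, leaving 1 member called, without siATF4 in 25 mM, replicate 1 or 3, without siControl in 0 mM, replicate 2 or 3, or without siControl in 25 mM, replicate 2 (adjusted p from 0.054 to 0.131).

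**Figure D3:**
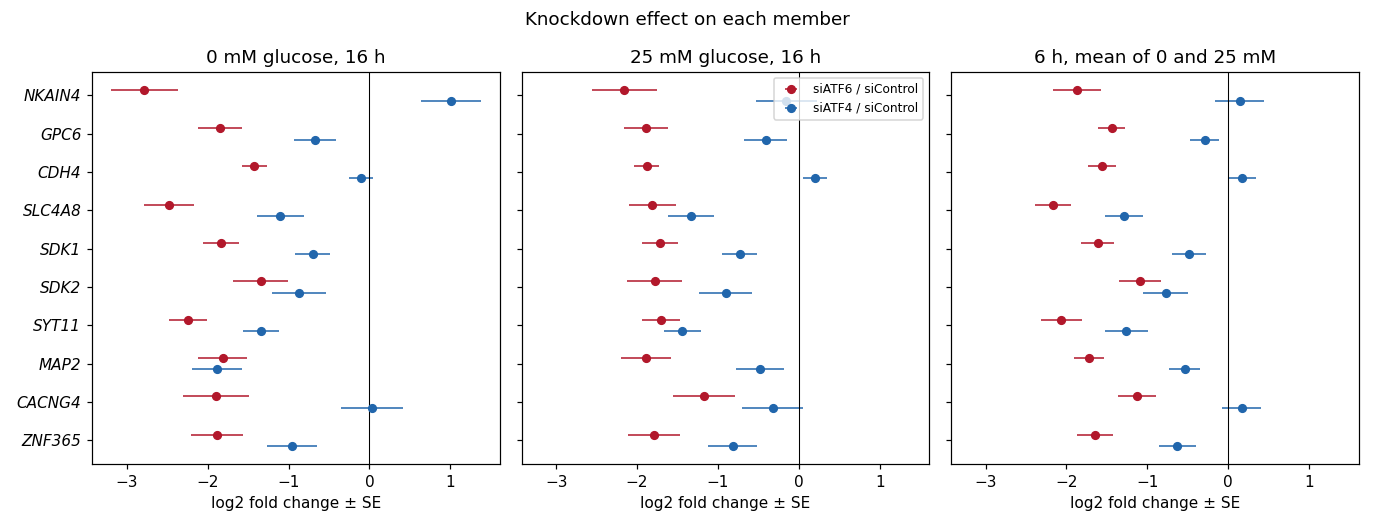
Log2 fold change with its standard error (x axis) of each member (rows) with siATF6 (red) and siATF4 (blue) over siControl at 16 h in 0 mM and 25 mM glucose and at 6 h over both. Both sets of points share the siControl libraries; the red points served to pick the members and lie between -2.78 and -1.09, and the blue points of NKAIN4, CDH4 and CACNG4 lie near or above 0.

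The response to glucose did not enter the choice of the members, although the siControl and siATF6 libraries also served in the contrast that did. In siATF6 cells, 4 of the 10 members changed without glucose at 16 h, where 33.5% of all genes tested were called in either direction. CDH4 rose by 1.76 (SE 0.156, adjusted p = 5.53e-07) and MAP2 by 1.15 (SE 0.309, adjusted p = 0.00873), as log2 fold changes from edgeR. CACNG4 fell by 1.92 (SE 0.403, adjusted p = 0.00161) and SLC4A8 fell by 1.33 (SE 0.303, adjusted p = 0.00296). The call of MAP2 was lost without siATF6 replicate 1 in 0 mM (0.75, adjusted p = 0.0645). SYT11 at 0.46 (adjusted p = 0.144) and NKAIN4 at -0.88 (adjusted p = 0.117) did not pass, although their libraries did not overlap between the media. In all, 3 members lay wholly above and 3 wholly below in 0 mM, where 27% and 27.6% of all genes tested did so.

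In siATF4 cells, whose libraries had no part in the choice, 2 members changed without glucose, where 29.1% of all genes did. CDH4 rose by 0.99 (SE 0.152, adjusted p = 0.000186), with 101, 121 and 96.9 CPM in 0 mM against 46.9, 56.4 and 54.9 CPM in 25 mM. SYT11 rose by 1.10 (SE 0.233, adjusted p = 0.00242), with 3.75, 3.22 and 2.46 CPM in 0 mM against 1.26, 1.7 and 1.4 CPM in 25 mM. With only these 6 libraries in the fit, the call of SYT11 was lost (adjusted p = 0.0563). Neither gene overlapped between the media, and 16.6% of all genes tested lay wholly above in 0 mM. CACNG4 at -0.84 (adjusted p = 0.113) and NKAIN4 at 0.91 (adjusted p = 0.0795) did not pass in edgeR, though NKAIN4 did in DESeq2 (adjusted p = 0.047) and without siATF4 replicate 1 in 0 mM (adjusted p = 0.0324) or replicate 2 in 25 mM (adjusted p = 0.0394). The highest NKAIN4 value in 0 mM was again the 15.7 CPM of siATF4 replicate 3. MAP2 was at -0.32 (SE 0.3), with 3.01, 3.56 and 1.96 CPM in 0 mM against 4.49, 2.25 and 3.81 CPM in 25 mM.

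In siControl cells at 16 h, 4 of the 10 members changed without glucose, where 29% of all genes did. CDH4 rose by 1.30 (SE 0.153, adjusted p = 1.1e-05), MAP2 by 1.08 (SE 0.295, adjusted p = 0.012) and SYT11 by 1.00 (SE 0.224, adjusted p = 0.00316), and CACNG4 fell by 1.20 (SE 0.386, adjusted p = 0.0286), all on the log2 scale. SLC4A8 at -0.67 did not pass (adjusted p = 0.0895), but did with the replicate number as a block (adjusted p = 0.0451). Same-number samples deviated together here too (correlations 0.25 to 0.51), without labels that state a shared culture. The other 5 ran from -0.36 for SDK2 to 0.22 for ZNF365. The counts of 4, 2 and 4 of 10 members in siATF6, siATF4 and siControl stand beside shares of 33.5%, 29.1% and 29% of all genes.

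In the siControl libraries of 16 h, the 3 values in 0 mM lay wholly above the 3 in 25 mM for CDH4, SYT11 and MAP2 and wholly below them for CACNG4 and SLC4A8, where 25.8% and 26.2% of all genes did so. For CDH4 these were 105, 113 and 121 CPM in 0 mM against 41.7, 49.7 and 46.2 CPM in 25 mM, and for CACNG4 they were 7.1, 17.3 and 16.6 CPM in 0 mM against 21.4, 36.4 and 36 CPM in 25 mM. The call of CACNG4 was lost without siControl replicate 1 in 0 mM (adjusted p = 0.115), replicate 2 in 25 mM (adjusted p = 0.0928) or replicate 3 in 25 mM (adjusted p = 0.0876), and with no filter on low counts (adjusted p = 0.07). That of MAP2 was lost without replicate 2 in 25 mM (adjusted p = 0.0556), which leaves 2 members called.

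The change of the glucose response by siATF4 was tested as an interaction in edgeR, and 0 of the 10 members passed, with 2 at an unadjusted p under 0.05 and 0 in DESeq2. Over all genes tested 0.172% passed. The 2 were MAP2 at -1.40 (SE 0.42, adjusted p = 0.312), whose change without glucose was -0.32 in siATF4 and 1.08 in siControl, and NKAIN4 at 1.16 (SE 0.527, adjusted p = 0.539). Their responses to glucose are not shown to differ between siATF4 and siControl.

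**Figure D4:**
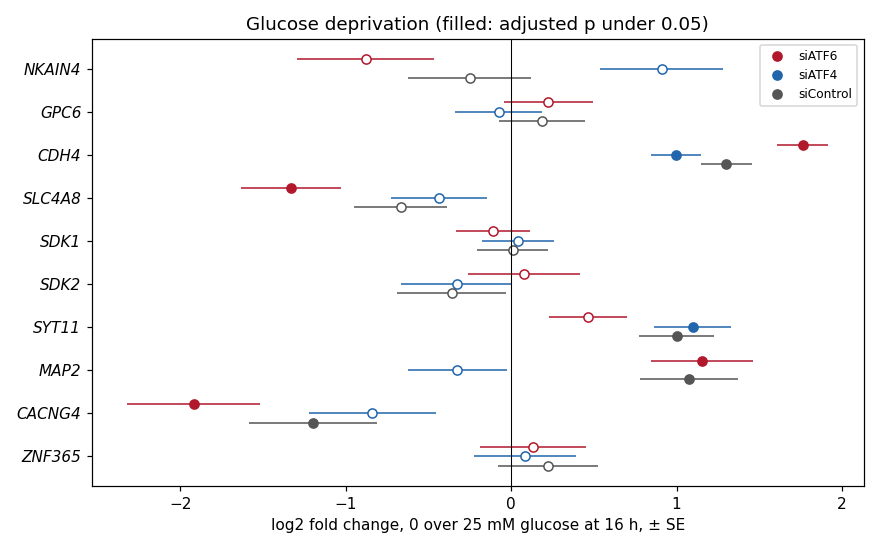
Log2 fold change of 0 over 25 mM glucose at 16 h with its standard error (x axis) of each member (rows) in siATF6 (red), siATF4 (blue) and siControl (grey) cells; filled points have an adjusted p under 0.05. CDH4 lies to the right in all 3, from 0.99 to 1.76, and CACNG4 to the left in all 3, from -0.84 to -1.92.

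At 6 h, deprivation called 0 members in siControl in edgeR, with 0 at an unadjusted p under 0.05, 0 in DESeq2 and 0 without replicate 2. Over all 19030 genes 0 were called (0%), with 160 at an unadjusted p under 0.05 and 3 in DESeq2. CDH4, the member with the clearest rise at 16 h, had 64.2, 36.3 and 53.0 CPM in 0 mM against 49.8, 45.5 and 44.0 CPM in 25 mM, and replicate 2, whose glucose labels are in doubt, was the low library in 0 mM. Between 16 and 6 h in 25 mM glucose, 0 members passed in edgeR in siATF4 (0.0578% of all genes) and 0 in siControl (0.273%), with 1 member each at an unadjusted p under 0.05 and 0 in DESeq2. That member was MAP2, at -0.61 (SE 0.26, adjusted p = 0.658) in siATF4 and -0.66 (SE 0.257, adjusted p = 0.39) in siControl, with 5.5, 4.3 and 5.02 CPM at 16 h against 7.87, 7.94 and 7.64 CPM at 6 h in siControl.

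Relatives of the members were counted from gene lists without the members, in siATF6 against siControl. Over all genes tested, 2.91% were called lower in 0 mM, 0.561% in 25 mM and 4.09% at 6 h. Of the neural immunoglobulin adhesion molecules, 4 of 15 tested fell in 0 mM, 3 of 15 in 25 mM and 4 of 16 at 6 h, and none rose. LSAMP, a membrane-anchored adhesion protein of the limbic system, was at -1.77 in 0 mM (adjusted p = 0.00687), -2.13 in 25 mM (adjusted p = 0.00994) and -1.23 at 6 h (adjusted p = 0.00186), and CADM1, which links epithelial and nerve cells, at -0.71 (adjusted p = 0.0167), -0.80 (adjusted p = 0.0252) and -0.48 (adjusted p = 0.00325). The list's median was -0.60 in 0 mM and -0.45 in 25 mM, beside -0.01 and 0.02 over all genes tested.

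Of 13 cadherins tested at 16 h, CDH15 at -1.81 (adjusted p = 0.00526) and CDH6 at -1.73 (adjusted p = 0.029) fell in 0 mM. In 25 mM, 0 passed in edgeR, with 5 at an unadjusted p under 0.05, and at 6 h 1 of 15 fell, CDH6 at -1.12 (adjusted p = 0.0183). Among 16 calcium channel and CACNG genes, 6 fell in 0 mM, 0 in 25 mM (5 at an unadjusted p under 0.05) and 5 at 6 h, among them CACNA1H, a T-type channel (-0.92 in 0 mM, adjusted p = 0.00156), and CACNA2D2, an auxiliary subunit (-1.76 in 0 mM, adjusted p = 0.0321). Of the 12 synaptotagmins 1 fell in each setting: SYT1, the calcium sensor of transmitter release, at -1.30 in 0 mM (adjusted p = 0.00477), -1.41 in 25 mM (adjusted p = 0.00994) and -1.35 at 6 h (adjusted p = 0.000104).

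Of 15 microtubule-associated proteins, 2 fell and 1 rose in 0 mM, 1 fell in 25 mM, and 1 fell and 1 rose at 6 h. MAP6, which stabilizes microtubules in the cold, was at -1.01, -0.99 and -1.02 (adjusted p = 0.00613, 0.0221 and 0.000137 in 0 mM, in 25 mM and at 6 h), and DCLK1, a doublecortin-like kinase, was higher by 1.31 in 0 mM (adjusted p = 0.0384) and by 1.20 at 6 h (adjusted p = 0.00386). Their median was -0.03 in both media. GPC2, another glypican, fell in 0 mM (-1.30, adjusted p = 0.0381) and at 6 h (-0.78, adjusted p = 0.0407), as 1 of 6 glypicans and syndecans, and 0 passed in 25 mM in edgeR, with 0 at an unadjusted p under 0.05. Of the NKAIN and sodium pump genes, 2 of 7 fell in 0 mM, 0 of 7 in 25 mM (1 at an unadjusted p under 0.05) and 2 of 8 at 6 h, with ATP1B1, the pump's main beta subunit, at -0.68 (adjusted p = 0.00373) and -0.39 (adjusted p = 0.0053) in 0 mM and at 6 h. No SLC4 transporter other than SLC4A8 passed in edgeR, of 6 tested at 16 h and 7 at 6 h, with 1, 0 and 3 at an unadjusted p under 0.05 in 0 mM, in 25 mM and at 6 h. With siATF4 in 0 mM, where 5.09% of all genes were called lower, 5 of 16 calcium channel genes and 3 of 12 synaptotagmins fell. Among the neural immunoglobulin molecules 3 of 15 fell and 1 rose, and among glypicans and syndecans 2 of 6 fell and 1 rose. Of the NKAIN and sodium pump genes 1 of 7 fell, no cadherin passed, and 1 SLC4 transporter and 3 microtubule-associated proteins rose. In 25 mM and at 6 h none passed with siATF4. The adjusted p values are those of edgeR.

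Genes of the ER stress response that ATF6 is known to drive were called in 0 mM glucose, where 6 of 14 fell, among them CRELD2, a secreted ER stress marker (-1.38, adjusted p = 0.00014), PDIA4, a disulphide isomerase (-1.10, adjusted p = 0.000362), and DNAJB11, a co-chaperone (-0.76, adjusted p = 0.000138). In 25 mM 0 of 14 passed in edgeR, with 1 at an unadjusted p under 0.05, and at 6 h 0 passed, with 4 at an unadjusted p under 0.05. The list's median was -0.48 in 0 mM, -0.06 in 25 mM and -0.50 at 6 h, and whether the settings differ was not tested. With siATF4, against the same siControl libraries, the median was 0.01 in 0 mM, -0.16 in 25 mM and -0.50 at 6 h. With siATF4, 1 of 14 fell and 2 rose in 0 mM, and none passed in 25 mM or at 6 h in edgeR. There, 6 in 25 mM and 0 at 6 h had an unadjusted p under 0.05. Replicate 2 at 6 h ran against its glucose labels in siControl and siATF6 but not in siATF4 (correlation 0.58). The 6 h medians with the 2 reagents therefore cannot be set beside each other, and none without replicate 2 is given for this list.

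**Figure D5:**
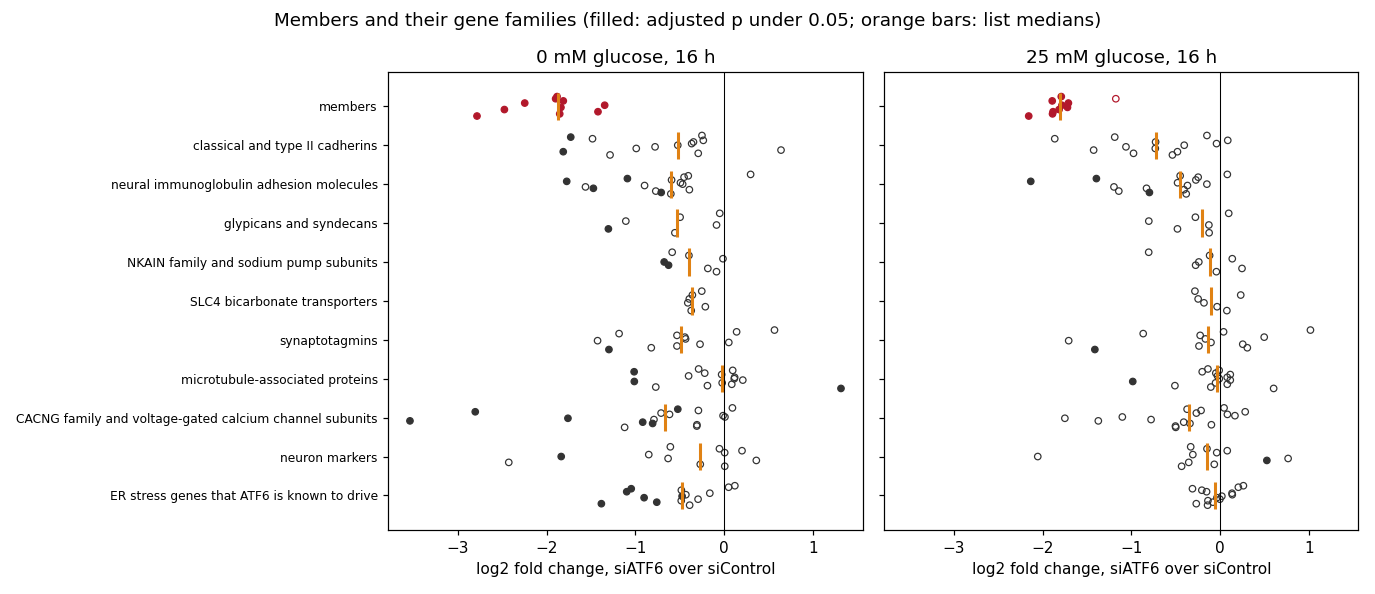
Log2 fold change of siATF6 over siControl at 16 h (x axis) in 0 mM (left panel) and 25 mM glucose (right panel) for the members (red) and for genes of related lists without the members (black); filled points have an adjusted p under 0.05 and orange bars are medians. The members were picked for low values; the medians of the other lists lie between -0.73 and -0.03.

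Several members are long genes. GPC6 spans 1181 kb, SDK1 968 kb, CDH4 688 kb, SDK2 and MAP2 310 kb each and ZNF365 296 kb, so 6 of 10 exceed 200 kb, while SLC4A8 spans 124 kb, CACNG4 68.7 kb, NKAIN4 31.9 kb and SYT11 25.6 kb. Among the 18013 genes tested at 16 h, 1194 exceed 200 kb. Of all tested genes over 200 kb, 7.87% were called lower with siATF6 in 0 mM, 3.18% in 25 mM and 14.2% at 6 h, against 2.56%, 0.375% and 3.37% of shorter genes. The median log2 fold change of the long genes was -0.26, -0.21 and -0.21. With siATF4 in 0 mM, 11.5% of long and 4.64% of shorter genes were called lower. In 25 mM the shares with siATF4 were 0.0838% (1 long gene) and 0.0178%, and at 6 h they were 0.157% and 0.146%. The part of gene length in the members' difference was not tested. Long and shorter members alike were picked for low values with siATF6, so nothing about length is read from their values.

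The nearest tested genes on either side of the members were looked up in siATF6 against siControl. The median log2 fold change of these 20 neighbours was -0.15 in 0 mM, -0.14 in 25 mM and -0.10 at 6 h. Of the 20, 2 were called in 0 mM, 1 in 25 mM and 3 at 6 h. Over all genes tested, 725 of 18013, 135 of 18013 and 1299 of 19030 were called in either direction. Those called at 6 h included PRKCA, a protein kinase gene before CACNG4 (-0.77, adjusted p = 0.00137 in edgeR), and RIT1, a small GTPase gene after SYT11 (-0.56, adjusted p = 0.0218). In 0 mM the 2 called were TGDS, after GPC6, which was higher by 0.65 (adjusted p = 0.0135), and CDC42EP4, before SDK2, at -0.42 (adjusted p = 0.0427).

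Across the means of the 12 groups, the members' pairwise Pearson correlations ran from 0.23 for CDH4 and CACNG4 to 0.96 for GPC6 and ZNF365. These points share libraries and the contrast on which the genes were picked, and are given as a description. Over the 8 groups without siATF6, GPC6 and ZNF365 stayed at 0.98 and SDK1 and SDK2 at 0.92, while CDH4 and CACNG4 stood at -0.95. NKAIN4 was negatively correlated with each member but CDH4 over those 8 groups, at -0.25 to -0.63. The 5 other genes whose 12 group means of log2(CPM + 1) correlated best with the mean z-score of the members, of 11860 compared with at least 5 CPM in a group, were KCNK1 (r = 0.98), DCDC1 (r = 0.98), MRC2 (r = 0.96), RASA4 (r = 0.96) and GFM1 (r = 0.95). KCNK1, a potassium channel gene, averaged 9.46 CPM in siATF6 and 17.6 CPM in siControl in 25 mM glucose at 16 h, and DCDC1, a doublecortin-domain gene, 1.27 CPM in siATF6 and 4.36 CPM in siControl.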

How the data were processed

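Expected counts per gene, estimated by RSEM, were deposited by the authors for 36 libraries; fastp, STAR and GRCh38 are also named in the submitters' processing notes, without versions or the annotation release. Counts were rounded to whole numbers (9.32% of cells were not whole). All value columns were used. Tests were made in R 4.3.3 by edgeR 4.0.16, with filterByExpr (minimum count 10, minimum total 15), TMM factors, robust quasi-likelihood fits with 1 mean per group, and Benjamini-Hochberg adjustment over all genes at 0.05. The 18 libraries of 16 h gave the 16 h results, and 35 libraries those of 6 h and of time. Alternatives included DESeq2 1.42.0, other size factors, other sets of libraries and each library left out. The pipeline was tested on simulated data.

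The members and the gene lists were chosen with earlier results of these data known. Named genes are the members, the silenced factors, of each list at most the 3 genes with the smallest adjusted p, nearest neighbours, and the 5 genes most like the members, beside cell type markers; AL121827.2 and GALNT6, which overlap members, were added after their values were seen. A neighbouring gene is not reported here. TPM-like values used the deposited effective lengths. Totals were 39389285 counts or more. The mean chi-square per gene between replicates was at least 8.44, where counting noise gives about 1. Over all genes the spread between cultures thus exceeded counting noise. The mean does not show this for members with few counts, such as NKAIN4 with 30, 37 and 28 in siATF6 in 0 mM at 16 h. Chi-squares were highest for siATF4 replicate 3 in 0 mM at 16 h, at 260.8 and 236.7 against replicates 1 and 2. Between replicates 1 and 2 of that group the value was 81.35. Replicate numbers deviated together (every same-number correlation over 0.1) in 5 of 13 comparisons: siATF6 against siControl in 0 mM and 25 mM at 16 h (0.20 to 0.60 and 0.21 to 0.54), siATF4 against siControl in 25 mM at 16 h (0.28 to 0.56), and deprivation at 16 h in siControl (0.25 to 0.51) and siATF6 (0.14 to 0.36). The labels give the numbers and do not say which samples share a culture.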

Additional observations from a re-analysis of the deposited data

Results flagged for a closer look

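The 3 values here were set apart for opposite directions without glucose at 16 h. All libraries of an siRNA moved one way, and all libraries of another moved the opposite way. Each 0 mM library was set against the mean of the 25 mM libraries of its own siRNA, on the scale of log2(CPM + 1). The added 1 makes changes of genes near 1 CPM smaller. None of these differences was tested. For NKAIN4, the mean difference of siATF6 minus siATF4 on this scale was -1.16. Its siATF6 libraries moved by -0.36 to -0.51 without glucose, and its siATF4 libraries by 0.22 to 1.48. The edgeR log2 fold changes, without the added 1, were -0.88 in siATF6 and 0.91 in siATF4, neither of them called. The 1.48 is that of siATF4 replicate 3, the library with the fewest genes with a count of the 35. For SDK2, the mean difference was 0.31 for siATF6 minus siATF4 and 0.38 for siATF6 minus siControl. Its siATF6 libraries moved by 0.05 to 0.16, its siATF4 libraries by -0.47 to -0.01 and its siControl libraries by -0.71 to -0.01, so single libraries lay close to 0.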

How the results depend on the processing

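The members called with siATF6 were 10 in 0 mM, 9 in 25 mM and 10 at 6 h, and leaving out 1 library gave 8 to 10, 4 to 9 and 10 to 10. For siATF4, 4 in 0 mM, 1 in 25 mM and 2 at 6 h became 2 to 6, 0 to 0 and 0 to 2. Deprivation calls at 16 h of 4 in siATF6, 2 in siATF4 and 4 in siControl became 3 to 4, 2 to 3 and 2 to 4. With all 36 libraries, the failed one included, the counts were 1, 1 and 4 with siATF6 in 0 mM, in 25 mM and at 6 h, 0 in each siATF4 setting and 0 for deprivation in all 3 siRNAs; at 6 h with siATF4, SDK2 (0.42), SLC4A8 (0.14), MAP2 (0.09), NKAIN4 (-0.13), CDH4 (-0.12) and CACNG4 (-0.12) then changed sign. With only the groups compared, siATF4 gave 0 in each setting and deprivation in siATF4 gave 1. In siATF4 against siControl in 25 mM, 35 libraries gave 0 and DESeq2 gave 2; at 6 h, 29 libraries without replicate 2 gave 0. The cause was not tested. Median-of-ratios and upper-quartile factors, and no filter on low counts, left all 13 counts within 1.5 times; no scaling moved the median of all genes by more than 0.04.

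With the replicate number as a block, siATF4 gave 7 members in 0 mM, with NKAIN4, SDK2 and ZNF365 added, and 2 in 25 mM, and deprivation in siATF4 gave 4, with NKAIN4 and CACNG4 added. The shares of all genes called with the block are not given here. These counts therefore cannot be set beside the shares of the fits without it. In 0 mM and for deprivation in siATF4 not all same-number samples deviated together (lowest correlations 0.09 and -0.36), and the labels do not say whether they share a culture. The block added SLC4A8 to deprivation in siControl and CACNG4 to siATF6 in 25 mM and changed no other call of a member. Genes below about 1 CPM, such as NKAIN4 in siATF6, rest on few counts.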
